A study of Mus musculus with 6 samples.

Results

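The major urinary protein (Mup) genes Mup1, Mup3, Mup4, Mup5, Mup18, Mup20 and Mup21 were followed on 6 one-color arrays of tumor-bearing mouse colon. All gene probes carrying one of these 7 symbols, by the name on the array or through the accession of the probe, were taken, which gave 11 of 56605 gene probes and 7 of 37325 genes. The members were chosen by measured values of these arrays: probes named Mup1 and Mup21 had separated arrays 5, 10 and 11 from arrays 6, 7 and 8, and the other 5 symbols are relatives of theirs. That separation is therefore given below as a description, with no test.

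Mup proteins are lipocalins, small secreted barrel-shaped proteins that hold volatile pheromones and are released into mouse urine. The liver makes most of them, under growth hormone and androgens, and lacrimal, salivary and other exocrine glands make some as well. Their genes are close copies of one another that lie side by side on chromosome 4, so that a probe for one can match transcripts of another.

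The mice were male C57BL/6 animals, 6 to 8 weeks old when bought, and all of them received the carcinogen AOM (10 μg/g) and drinking water with 2% DSS, an agent that inflames the colon, for 5 days. One group of 3 then had oral doses of RG@M-γ-CD (30 μg/g, or 10 μg/g as RG), an inclusion complex of the kinase inhibitor regorafenib in mannose-modified γ-cyclodextrin. The other group of 3 was given PBS. Dosing ran for 21 days and the mice were watched for 14 more, after which RNA of colon tissue with tumors was hybridized, with 1 array per mouse. The arrays are called RG 1, RG 2 and RG 3 (arrays 5, 6 and 7) and PBS 1, PBS 2 and PBS 3 (arrays 8, 10 and 11).

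An intensity is given as a percent of the array's own 75th percentile over gene probes. A difference is on the log2 scale, RG@M-γ-CD minus PBS. The scanner software marked 49.6% to 55.2% of gene probes per array as well above background. The lowest such probe stood at 4.08% to 6.33% of the 75th percentile. All arrays came from 1 slide and 1 scan, with the RG arrays and PBS 1 in slide row 1 and PBS 2 and PBS 3 in slide row 2. The study's heat map sets arrays 5, 10 and 11 apart from arrays 6, 7 and 8, which crosses the labels, and the labels were kept here for every comparison of RG@M-γ-CD with PBS. All 16 colon epithelium markers were well above background on all 6 arrays. Xist was well above background on no array and Ddx3y, Eif2s3y, Kdm5d and Uty on all 6, with Eif2s3y lowest in PBS 3, at 42.9% against 184% to 323% on the other arrays, and Uty too, at 8.92% against 24.5% to 51.3%.

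The probes come first, because they set which gene a signal can be read for. The probe for Mup1 (A_55_P1979904) lies on the minus strand of chromosome 4, at chr4:60512590-60512649 in mm9, and one of the probes for Mup21 (A_55_P2743972) overlaps it in sequence. Over the 45 bases that they share, the Mup1 and Mup21 probes differed at 3. The array annotation names at most 4 transcripts for a probe. It lists RefSeq transcripts of 3 Mup genes for the Mup1 probe (Mup1, Mup2 and Mup19) and of 4 for the Mup21 probe (Mup1, Mup2, Mup19 and Mup21). Signal of Mup21 and signal of Mup1, Mup2 or Mup19 cannot be told apart with this probe.

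The other probes that rose above background were also related. The Mup18 probe, which the array calls LOC100048884, is at chr4:61331294-61331353 (mm9, minus strand), and its list holds Mup16, Mup18 and Mup19. It shares an unbroken run of 35 bases with the probe for Mup17, whose first 30 bases are shown, in capitals since both probes hold them.
Mup18 and Mup17: CTAGGATACCTCATCAAGAATCAAAGACTT
The Mup4 probe, at chr4:59969824-59969883 (mm9, minus strand), lists RefSeq transcripts of Mup4 alone. It has in common with one of the Mup20 probes (A_55_P2063654) a run of 24 bases within an overlap of 52 bases that holds 7 mismatches.
Mup4 and Mup20: AAGTTCTGTGATCTGCTTTCCATC
Among all 22 probes for Mup genes and pseudogenes there were 231 pairs, and 9 of them shared a run of at least 15 bases. Mup4 was the only member with a probe that lists RefSeq transcripts of 1 Mup gene alone and was above background on 3 arrays. Its closest match among these probes was one for the pseudogene Mup-ps16, with a shared run of 29 bases and 4 mismatches over 47 bases. That Mup-ps16 probe was well above background on no array.

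Probes for Mup1, Mup4 and Mup18, and the Mup21 probe that also lists Mup1, Mup2 and Mup19, were well above background on the same 3 arrays, RG 1, PBS 2 and PBS 3, and on none of the others. Mup1 read 36.8% on RG 1, 1.14% on RG 2 and 1.07% on RG 3, against 0.904% on PBS 1, 28.2% on PBS 2 and 16.9% on PBS 3. Mup18 read 60.9%, 2.86% and 1.08% on the RG arrays and 2.25%, 52.9% and 25.7% on the PBS arrays, in the same order. Each group thus held arrays with these transcripts and arrays without a level above background, and the groups overlapped. In bulk tissue, fewer cells of a type and less RNA per cell cannot be told apart.

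The Mup4 probe and the shared Mup21 probe followed the same order of arrays. Mup4 read 22.3%, 1.13% and 1.06% on the RG arrays and 1.08%, 15.1% and 8.66% on the PBS arrays. The Mup21 probe that overlaps Mup1 read 28.1%, 1.22% and 1.12% on the RG arrays and 0.991%, 26.8% and 12.3% on the PBS arrays. RG 1 was highest, PBS 2 next and PBS 3 after it for all 4 probes, each array being a single mouse with no error of its own. The gap between RG 1 and PBS 2 was the narrower one: RG 1 stood at 0.95 to 1.51 times PBS 2 and 1.80 to 2.58 times PBS 3 over 6 probes, these 4 and those of Mup17 and Mup2.

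**Figure D1:**
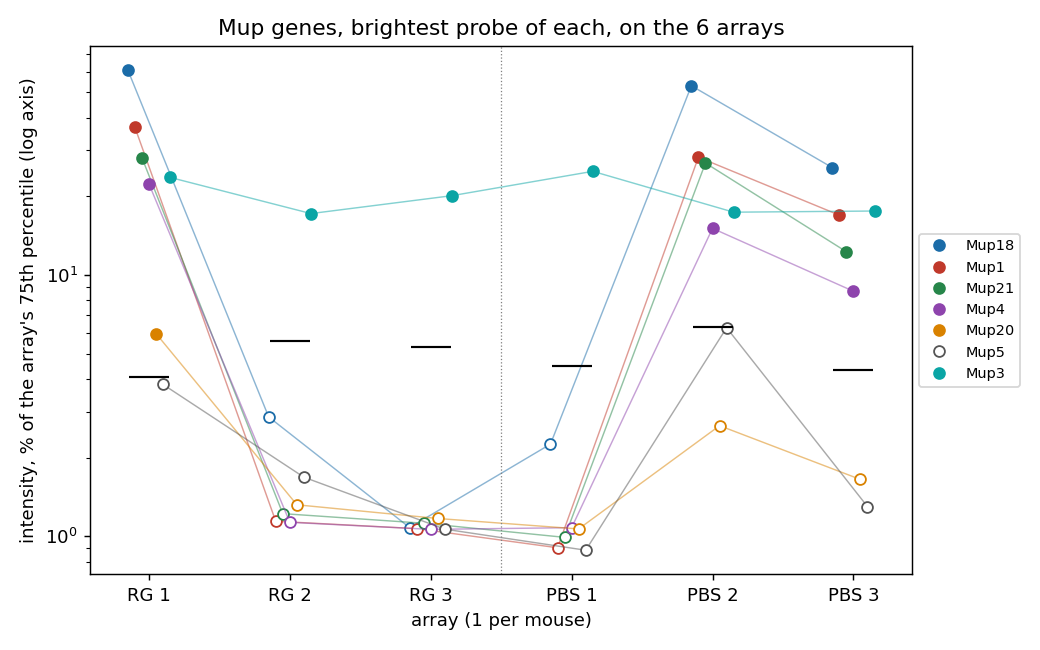
Intensity of the brightest probe of each Mup gene on each array, as a percent of the array's 75th percentile on a log axis. Filled points are well above background and open points are not, short bars mark the lowest probe well above background on that array, and thin lines only join the points of a probe. Mup1, Mup4, Mup18 and the Mup21 probe shared with Mup1 are filled on RG 1, PBS 2 and PBS 3 alone, while Mup3 lies between 17.2% and 24.9% on all 6 arrays.

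The remaining members were dim, or their probes disagreed. Mup20 encodes darcin, the male pheromone protein that draws females to a scent mark. Its first probe (A_55_P2051486) was well above background on RG 1 alone, at 5.97%, and read 1.07% to 2.65% on the other 5 arrays. Its second probe, which shares the run printed above with the Mup4 probe, stayed between 0.809% and 2.13% and was well above background on no array. Mup5 was above background on none, with its highest values on PBS 2 (6.28%) and RG 1 (3.81%). No level can thus be given for Mup5, and none for Mup20 outside RG 1.

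The probes of Mup21 and Mup3 gave opposite pictures of the same gene. The Mup21 probe that lists RefSeq transcripts of Mup21 only (A_55_P2025343) was well above background on no array and read 0.816% to 2.40%, while the probe shared with Mup1 gave the values above. Mup3 had 3 probes. A_66_P133052 was well above background on all 6 arrays, at 23.6%, 17.2% and 20.1% on the RG arrays and 24.9%, 17.4% and 17.6% on the PBS arrays, but 0 RefSeq transcripts are listed for it. The other Mup3 probes, for which a Mup3 transcript is listed, were well above background on no array and reached 2.24% at most. In all, 6 of the 11 member probes were well above background on at least 1 array and 5 on none.

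**Figure D2:**
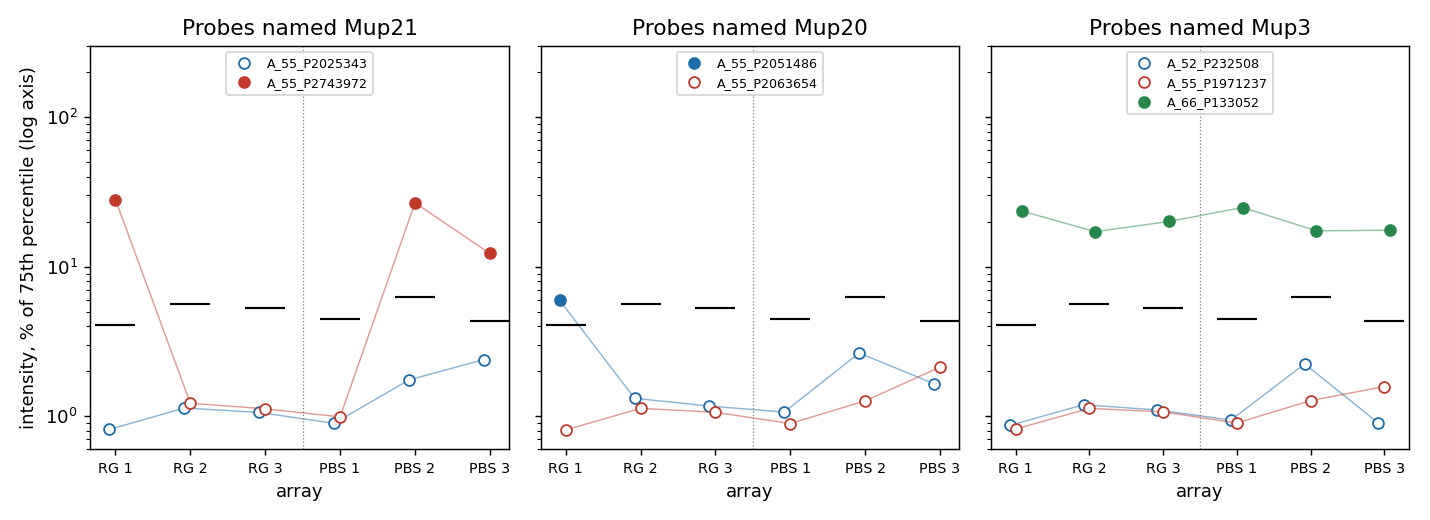
Intensity on each array of every probe for Mup21, Mup20 and Mup3, as a percent of the array's 75th percentile on a log axis, with filled points well above background, open points not, and short bars at the lowest probe well above background. Within each gene 1 probe rises above background on at least 1 array and the others on none.

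RG@M-γ-CD was compared with PBS to ask which genes the treatment changed in the tumor-bearing colon. With limma over 19090 genes, 0 passed an adjusted p of 0.05, which is 0% of those tested, and 419 lay below an unadjusted p of 0.05. The test of the study's methods called 0 as well after adjustment. Mup3 was the only member tested, since a gene needed a probe well above background on all 3 arrays of a group. Its difference was 0.03 (SE 0.24, adjusted p = 1 in limma). It was tested on A_66_P133052, for which no RefSeq transcript is listed, so the value may not be that of Mup3. On 4.57% of tested genes the RG and PBS arrays did not overlap, and among the 11 member probes 0 were without overlap.

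The 6 members that missed this filter have differences on their brightest probes, which rest in part on values at background. On the log2 scale relative to the 75th percentile, the 3 RG arrays averaged -4.13 ± 3.04 (SD) for Mup18 and the 3 PBS arrays -2.78 ± 2.39, a difference of -1.34. The difference was -1.09 for Mup1, -1.03 for Mup21 and -0.80 for Mup4, each smaller than the SD within either group. It was 0.33 for Mup20 and -0.03 for Mup5. With no filter on dim probes limma gave an adjusted p of 1 for each of the 7 genes, with an SE of 1.77 for Mup1 and 1.73 for Mup18.

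Slide row 1 held the 3 RG arrays and PBS 1, and row 2 held PBS arrays only. Within row 1 the difference was 1.98 for Mup1, 1.47 for Mup4, 1.35 for Mup18 and 1.77 for Mup21, the opposite sign to that over all arrays. On PBS 1, the single PBS array of that row, these 4 probes were not well above background.

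Set out as arrays 5, 10 and 11 (RG 1, PBS 2 and PBS 3) over arrays 6, 7 and 8, the differences were wide. The dim side has only a bound, taken as the higher of its own value and the lowest probe well above background on that array. By this measure Mup18 was at least 8.55-fold higher on arrays 5, 10 and 11, Mup1 at least 5.10-fold, the Mup21 probe at least 4.12-fold and Mup4 at least 2.80-fold. These values were those the members were chosen by and carry no test. All of arrays 5, 10 and 11 lay above all of 6, 7 and 8 for 5 of the 11 member probes. Among these was a Mup20 probe that was well above background on RG 1 alone. The share was 17.8% over 20107 genes well above background on at least 3 arrays, a filter the member probes were not held to. Of those genes 39 (0.194%) were well above background on arrays 5, 10 and 11 and on none of the others, and 67 (0.333%) the other way round.

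The Mup probes moved together over the arrays. For the 6 probes above background on RG 1, PBS 2 and PBS 3 alone, those of Mup1, Mup2, Mup4, Mup17, Mup18 and Mup21, Pearson's r on the log2 scale over the 6 arrays was 0.895 or more in all 15 pairs, with a median of 0.962. The probes of Mup1 and Mup21, and those of Mup17 and Mup18, share sequence as described, and some of the 6 share listed transcripts. The Mup4 probe lists RefSeq transcripts of Mup4 alone and shares a run of at most 6 bases with any of the others. All 6 divide the arrays in the same way, so r is given as a description.

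The Mup genes outside the member list behaved alike where they were measured. Of 15 such genes 5 are on the array and 3 were well above background on some array. Mup17 read 23.9%, 2.62% and 3.55% on the RG arrays and 1.11%, 15.8% and 10.3% on the PBS arrays. Mup2 read 11%, 2.93% and 1.34%, against 1.25%, 11.6% and 6.10%. Both were well above background on RG 1, PBS 2 and PBS 3 alone. Mup19 was also so on PBS 1, with 90.4%, 5.86% and 3.25% on the RG arrays and 10.4%, 73.0% and 40.7% on the PBS arrays. It passed the filter, and its difference of -1.39 (SE 1.34) had an adjusted p of 1 in limma. Mup6 and Mup11 were well above background on no array.

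Upstream sequence was available for Mup3, Mup4, Mup18 and Mup21 among the members, from RefSeq on GRCm38.p6. The 100 bases before each annotated start are printed 5′ to 3′ on the gene's own strand, which is the minus strand for all 4, because the Mup4 and Mup18 probes gave the same pattern over the arrays. Mup3 and Mup21 are set beside them. They are chr4:62087318-62087417 for Mup3, chr4:59960668-59960767 for Mup4, chr4:61674095-61674194 for Mup18 and chr4:62150842-62150941 for Mup21. Capitals mark TATATAA, followed in Mup4 by an A with which it overlaps a TATAAA.
Mup3: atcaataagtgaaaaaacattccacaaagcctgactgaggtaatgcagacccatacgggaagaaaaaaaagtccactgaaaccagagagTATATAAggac
Mup4: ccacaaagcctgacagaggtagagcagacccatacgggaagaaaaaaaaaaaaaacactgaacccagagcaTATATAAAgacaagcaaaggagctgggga
Mup18: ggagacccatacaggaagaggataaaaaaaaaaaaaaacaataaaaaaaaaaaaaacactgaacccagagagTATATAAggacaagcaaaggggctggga
Mup21: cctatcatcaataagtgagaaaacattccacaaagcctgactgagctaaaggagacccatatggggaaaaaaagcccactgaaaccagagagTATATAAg
TATATAA, searched on both strands of the 250 bases before the start, was found in 11 of 14 Mup genes with a sequence and in 3.04% of 32851 promoters. It was picked after these sequences were seen. It began 11 bases before the annotated start in Mup3, 29 in Mup4, 28 in Mup18 and 8 in Mup21. TATAAA was present in 2 of the 14, Mup4 and Mup6, and in 12.4% of all. TTCNNNGAA, the letters bound by STAT5, which carries the growth hormone signal, was found in 0 of the 14 and 7.02% of all promoters. TGTTTAC, a forkhead motif, was found in 0 and 3.17%, and TTGCNNAA, which fits C/EBP factors, in 0 and 9.56%. The 250 bases of Mup21 were laid without gaps against those of other genes at the shift that matched best. Over the overlapping bases they matched Mup3 at 84.0% and Mup18 at 55.5%. On the chromosome, Mup4 is the first and Mup21 the last of the 22 Mup genes in RefSeq, with Mup3 next to Mup21.

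The factors known to control Mup genes in liver were present in this tissue. Of 20 such genes all were well above background on some array and 19 were tested, with 11 higher after RG@M-γ-CD, 8 lower and 0 past the test in limma, and a median difference of 0.14 against -0.01 over all genes. Hnf4a, a hepatocyte and gut epithelial transcription factor, read 6793%, 7954% and 8736% on the RG arrays and 5447%, 8218% and 6837% on the PBS arrays. Foxa1, a forkhead factor that opens chromatin, lay between 2709% and 3894% on all arrays. Foxa1 was higher on RG 1, PBS 2 and PBS 3 (3894%, 3283% and 3427%) than on any other array, and so was Cebpb, a C/EBP factor, at 890%, 897% and 1010% against 796% to 858%. In all, arrays 5, 10 and 11 lay above the others for 4 of 19 regulators, against 17.8% of all genes. Foxa2 lay between 920% and 1270%.

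Among male-biased liver genes under growth hormone, arrays 5, 10 and 11 lay above the others for 1 of 9 (17.8% of all genes). Arrays 6, 7 and 8 lay above the others for 2 of 9 (6.84% of all genes). Of 15 genes 12 were well above background on some array and 8 were tested, 5 higher and 3 lower, with 0 past the test and a median of 0.08. Their summed intensity ranged from 3186% to 13270% on the RG arrays and from 4809% to 11790% on the PBS arrays. Selenbp2, a selenium-binding protein that is the largest part of that sum, was lowest on RG 1, at 1572%, where the Mup genes were highest. Gstp1, a glutathione transferase, lay between 877% and 1288%.

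Hepatocyte markers were partly present. Of 25 markers 18 were well above background on some array and 7 on none, which were Apoa1, Fga, Fgb, Fgg, Hpx, Serpina3k and Tdo2. Their summed intensity, of which Trf (transferrin) was the largest part, was higher on the arrays with Mup signal: 5694% on RG 1, 5023% on PBS 2 and 5700% on PBS 3, against 2857% on RG 2, 4245% on RG 3 and 3650% on PBS 1. Trf itself read 3622%, 1932% and 2288% on the RG arrays and 2047%, 3150% and 3780% on the PBS arrays. Alb, which encodes serum albumin, read 421%, 60.1% and 1015% on the RG arrays and 248%, 661% and 411% on the PBS arrays. It was highest on RG 3, where Mup1 was not above background. Cyp2e1, an alcohol-oxidizing cytochrome, read 34.1%, 16.7% and 5.74%, against 8.22%, 7.77% and 2.84%. Of the 15 markers tested 7 were higher after RG@M-γ-CD and 8 lower, with 0 past the test and a median of -0.03. All 3 fibrinogen chains and Serpina3k were at background on arrays with Mup signal. The part of liver transcripts in the Mup signal was not tested.

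Exocrine glands are the other known source of Mup proteins. Of 21 lacrimal and salivary gland markers 9 were well above background on some array and 12 on none, among them Smr2, Smr3a, Pip and Bpifa2, secreted proteins of these glands. All of arrays 5, 10 and 11 lay above all of 6, 7 and 8 for 5 of the 9, against 17.8% of all genes. Aqp5, among the 5, was well above background on arrays 5, 10 and 11 alone. It entered the count only through the arrays where it was high, so the count is a description with no test. Bhlha15, a secretory-cell transcription factor also among the 5, read 204%, 151% and 114% on the RG arrays and 149%, 192% and 263% on the PBS arrays. Klk1b22, another of the brightest genes of the list, was lowest on RG 1, at 71.7% against 124% to 450% on the other arrays. The summed level was 610%, 978% and 819% on the RG arrays and 508%, 1355% and 942% on the PBS arrays. The sum on RG 1 was thus below that on RG 2 and RG 3, unlike for Mup1. Klk1b22, at 71.7%, 450% and 287% on the RG arrays, had the same order and was the largest part of the sum on RG 2. Of the 7 tested markers 0 passed, with 3 higher, 4 lower and a median of -0.04. Their part in the Mup signal was not tested.

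Of 19 exocrine pancreas markers 18 were well above background on some array. Of 10 tested 1 was higher after RG@M-γ-CD and 9 lower, with 0 past the test and a median of -1.03. Some of the 9 passed the filter through the PBS arrays alone, where they were high, which favors a lower sign. With the filter on all 6 arrays, 6 genes were tested and 1 was higher, with a median of -0.49. The median was -0.56 without PBS 2. Without PBS 1 it was -2.75, with 18 genes tested, since marks on PBS 2 and PBS 3 were then enough. On PBS 2 and PBS 3 18 of the markers were above background, against 9 or 10 on every other array. RG 1, which had the highest Mup1 signal, was among the arrays with 9. Pnliprp1, a lipase-related protein, read 8479% on RG 1 and 636% to 4430% on the other 5 arrays.

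Other secreted lipocalins, the relatives of the Mup proteins by fold, gave 4 higher and 4 lower of 8 tested, with 0 past the test and a median of 0.01. Lcn2, an iron-scavenging lipocalin of inflamed epithelium, read 2382%, 325% and 919% on the RG arrays and 2465%, 2903% and 4976% on the PBS arrays, a difference of -1.88 (SE 0.71, adjusted p = 1 in limma). The summed lipocalin level was also higher on RG 1, PBS 2 and PBS 3 (3223%, 4059% and 6123%) than on the other arrays (1515% to 3149%), and Lcn2 was its largest part on every array but RG 2. On PBS 1 Lcn2 was high while Mup1 was at background. Rbp4, the retinol carrier, lay between 305% and 747%.

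For the other lists arrays 5, 10 and 11 lay above the others for 2 of 15 hepatocyte, 2 of 13 pancreas, 1 of 10 lipocalin, 3 of 11 squamous and 1 of 16 colon epithelium genes, against the same 17.8%, and for 0 prostate, urothelium, adipocyte and posterior Hox genes.

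The remaining lists also held 0 genes past the test. The median was -0.08 for 10 squamous epithelium genes. The sum of that list was 2907%, 3396% and 2907% on RG 1, PBS 2 and PBS 3 against 1794% to 2675% on the other arrays. Krt14, a keratin, was the largest part of it on every array, at 1749%, 1947% and 1616% against 536% to 1305%. Lor and Trp63, also among its brightest genes, were lowest on RG 1. The median was -0.55 for the 2 tested prostate and seminal vesicle genes, 0.11 for 3 urothelium genes, 0.53 for 6 adipocyte genes and -0.09 for 16 colon epithelium genes. The adipocyte median was 0.15 without RG 2 and 0.24 without PBS 1, and Adipoq, Cfd and Retn, secreted products of fat cells, were well above background on RG 2 alone. Of 13 prostate and seminal vesicle markers 10 were well above background on no array. Their part in the Mup signal was not tested.

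**Figure D3:**
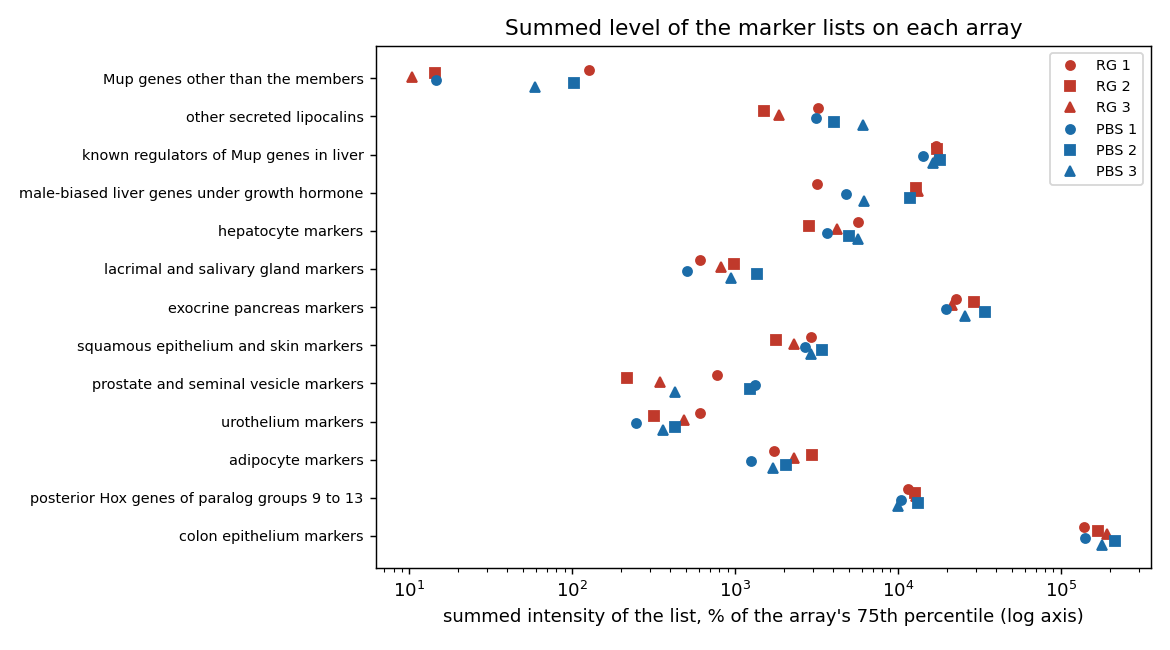
Summed intensity of each gene list on each array, as a percent of the array's 75th percentile on a log axis, with RG@M-γ-CD arrays in red and PBS arrays in blue. For the other Mup genes RG 1, PBS 2 and PBS 3 lie from 58.8% to 127% and the others from 10.3% to 14.7%, with no array between.

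The posterior Hox genes, which mark position along the gut and body axis, ran against the Mup genes within 1 cluster. Hoxd12 read 0.817% on RG 1, 60.7% on RG 2 and 129% on RG 3, against 322% on PBS 1, 1.27% on PBS 2 and 0.862% on PBS 3. Hoxd13 read 7.35%, 920% and 504% on the RG arrays and 1020%, 94.0% and 13.5% on the PBS arrays. For these genes arrays 6, 7 and 8 were high and arrays 5, 10 and 11 low, the reverse of Mup1. All of arrays 6, 7 and 8 lay above the others for 5 of the 11 posterior Hox genes well above background on at least 3 arrays, against 6.84% of all such genes. Some of the 5, Hoxd12 among them, passed that filter through arrays 6, 7 and 8 alone, where they were high. The list was chosen with earlier results of these data known, so the count is a description with no test. Hoxb13, of another cluster, lay between 7023% and 11030% on all arrays. As labelled, 4 of 7 tested were higher and 3 lower, with 0 past the test and a median of 0.08.

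The genes most like the Mup members were ranked among 2281 genes with a range of at least 2 on the log2 scale, by Pearson's r over the 6 arrays with the mean of the 6 member probes above background. Highest were Nmnat1 (r = 0.973), a (r = 0.971), Mup19 (r = 0.969), Ggt1 (r = 0.965) and Mup2 (r = 0.960). Nmnat1 makes NAD in the nucleus, the gene named a is nonagouti, a coat color signal, and Ggt1 cleaves glutathione. Nmnat1 was well above background on all 6 arrays, at 430%, 119% and 103% on the RG arrays and 99.9%, 518% and 428% on the PBS arrays. It parted the arrays as Mup1 did, with PBS 2 rather than RG 1 highest. The lowest r were those of 2810040C05Rik (-0.997), BB207980 (-0.994), Gm31214 (-0.972), Zfpm2 (-0.969) and 4831440D22Rik (-0.967). 2810040C05Rik read 18.7%, 78.8% and 90.9% on the RG arrays and 75.03%, 21.4% and 28.0% on the PBS arrays. All points share the same 6 arrays, and the split between them sets r.

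**Figure D4:**
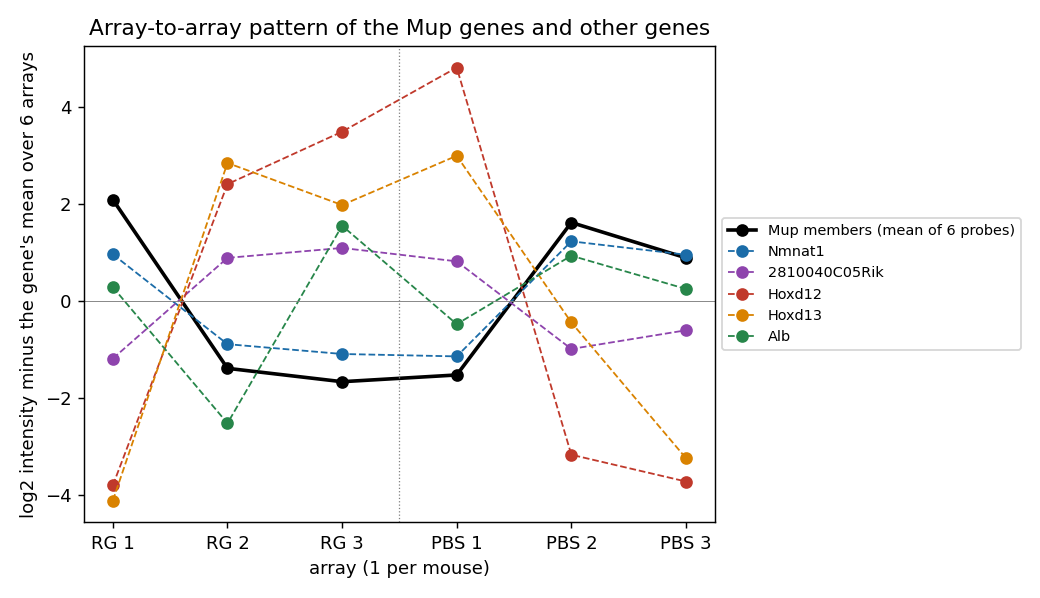
Log2 intensity of each gene on each array minus its mean over the 6 arrays, for the mean of the 6 member probes above background (black) and for 5 other genes (dashed). The Mup mean is at 2.09 on RG 1, 1.62 on PBS 2 and 0.89 on PBS 3 and between -1.67 and -1.39 on the other arrays, Nmnat1 follows it, Hoxd12 and Hoxd13 run the other way, and Alb does neither.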

How the data were processed

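One-color Agilent arrays of colon tissue with tumors from 6 mice were analysed, grouped by the labels. The intensity values deposited by the authors are output of Agilent Feature Extraction 10.7.1.1, background-subtracted and detrended but not normalized between arrays. The log2 values deposited by the authors in a table per probe served as an alternative. Marks for outlier, saturated and dim spots (a score of 0 or 1) came with the intensities.

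Control and outlier spots (790) were left out, 0 gene spots were saturated, spots of a probe were averaged as log2, and the array's 75th percentile was subtracted. Symbols came through accessions for 58.3% of probes. A probe was well above background where at least 0.5 of its spots were so marked. Each gene entered through the brightest of those probes that had this mark on all 3 arrays of either group, and was tested with limma 3.58.1 in R 4.3.3 and Benjamini-Hochberg adjustment at 0.05, after the fit was tested on simulated data. Precision is limited by the number of arrays, and p-values measure the spread between mice. Named were all members, up to 4 of the highest genes of each list, the 2 posterior Hox genes and hepatocyte markers with the widest range, the 5 highest and 5 lowest in likeness, and sex-linked genes; markers at background on every array were named besides. Members and lists were chosen with earlier results of these data known. Alternatives were quantile normalization, normexp with an offset of 50, the authors' table, other filters and probe rules, outlier spots kept, the t-test of the methods, replicate and slide row blocks, each array left out, and the heat map's arrangement. Probe positions are on mm9, and upstream sequence is from RefSeq (GRCm38.p6), which was not given for Mup1, Mup5 and Mup20. Figures were drawn with matplotlib. The sequences of the Mup1 and Mup21 probes are not reported here.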

Additional observations from a re-analysis of the deposited data

How the results depend on the processing

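The count of genes past the threshold between RG@M-γ-CD and PBS was 0, and it was 5 (2 higher, 3 lower) with arrays 6, 7 and 8 set against arrays 5, 10 and 11. With 1 array left out at a time it ranged from 0 to 206, the latter without RG 1, with 167 higher and 39 lower. It was 0 with the replicate number as a block, where 463 genes lay below an unadjusted p of 0.05. Same-numbered arrays correlated at -0.25, -0.23 and 0.14, so the numbers were not taken to pair them. For Mup3 the difference of 0.03 was -0.031 with normexp, -0.31 with slide row as a block, and -0.082 to 0.20 with 1 array left out (below 0 without RG 1, PBS 2 or PBS 3). The cause was not tested. With 1 array left out the difference ranged from -2.77 (without RG 1) to -0.14 (without PBS 2) for Mup1, from -3.05 (without RG 1) to -0.14 (without RG 3) for Mup18, from -2.25 to -0.030 for Mup4 and from -2.56 to -0.047 for Mup21 (both without RG 1 and without PBS 2), from -0.43 (without RG 1) to 0.75 for Mup20 and from -0.59 (without PBS 1) to 0.82 (without PBS 2) for Mup5. Beyond 1 SD, 8 member values moved, all with slide row as a block or in the heat map's arrangement. Among list medians, the range with 1 array left out was -2.85 to -0.45 for the other Mup genes (Mup19 in the full set), -2.75 to -0.56 for pancreas, 0.15 to 0.74 for adipocyte, -0.50 to 0.083 for gland and -0.052 to 0.22 for posterior Hox genes. On 3 of the 6 arrays the probes of Mup1, Mup4, Mup18 and Mup21 were not well above background, so there only a bound can be given, and Mup5 has no measured level.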

Other observations

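Genes of the intestinal α-defensins, antimicrobial peptides that Paneth cells release in the small intestine, came next in likeness to the Mup members. They were named after their values were seen. Of the genes ranked 6 to 10 by Pearson's r over the 6 arrays, 4 were Defa26 (r = 0.954), Defa27 (r = 0.950), Defa-ps1 (r = 0.949) and Defa40 (r = 0.947). Defa27 read 5202%, 379% and 348% of the 75th percentile on the RG arrays and 832%, 5098% and 5080% on the PBS arrays. Defa40 read 14660%, 1137% and 1099%, against 2568%, 13590% and 14300%. Both were well above background on all 6 arrays and, like Mup1, highest on RG 1, PBS 2 and PBS 3. The defensin genes are close copies of one another, so they are not separate observations.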
